A study of Mus musculus with 6 samples.

Results

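Regulatory T cells were examined in the liver non-parenchymal cells (LNPCs, the cells of the liver other than hepatocytes) of mice with nonalcoholic steatohepatitis (NASH). The cells were chosen by their measured UMI counts, so those counts are no finding. A cell counted as a regulatory T cell with at least 1 unique molecular identifier (UMI, 1 counted transcript molecule) of Foxp3, at least 1 UMI of Cd3d, Cd3e or Cd3g, no UMI of Cd8a or Cd8b1 and at most 1 UMI of Cd79a. This rule gave 126 of the 27,544 cells kept by the quality filter of under 5000 genes and under 5% mitochondrial UMIs. Male C57BL/6J mice, with no genetic change stated, started a high-fat diet (HFD) at 8 weeks of age and stayed on it for 24 weeks. In the last 8 weeks the control group received vehicle (DMSO) by gavage and the other group received ginkgetin, a plant biflavone, at 10 mg/kg/day by the same route. Each group had 3 libraries of 10x Genomics droplets. The extraction text of the labels names kits of another library type, and the whole-number tables were read here as UMI counts. The sources give 3 samples per group for this assay but not whether a sample was 1 mouse or pooled mice, and both groups carried the diet, so a lean control is not part of these comparisons. The p-values measure the spread between these libraries, which may be technical.

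Regulatory T cells are CD4 T cells that hold other immune cells in check. The transcription factor FOXP3 sets their program, the high-affinity interleukin-2 receptor chain encoded by Il2ra keeps them alive, and the receptor encoded by Ctla4 takes costimulatory ligands away from antigen-presenting cells. In tissues, effector forms of these cells carry the interleukin-33 receptor encoded by Il1rl1 and make amphiregulin (Areg), a growth factor for epithelium, whereas resting forms keep the lymph node homing receptor encoded by Ccr7.

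Vehicle replicates 1, 2 and 3 held 33, 7 and 53 regulatory T cells and ginkgetin replicates 1, 2 and 3 held 8, 12 and 13. Their UMIs summed to 132,558, 24,234 and 215,706 in the vehicle libraries and to 51,701, 34,004 and 108,824 in the ginkgetin libraries, so that 3 UMIs, the limit used for a count of 0, were worth between 13.9 and 124 CPM. CPM is a count scaled to a library total of 1000000 UMIs, here the summed UMIs of 1 cell type in 1 library. Where 2 sets of 3 levels are set against each other, the vehicle replicates 1 to 3 come before the ginkgetin replicates 1 to 3. Vehicle replicate 2 and ginkgetin replicate 1 had under 10 regulatory T cells and were left out of the gene tests, but their levels are given. Replicate 3 of both groups carried another set of cell barcodes and other gene symbols than replicates 1 and 2, and 16,150 of 19,349 symbols had UMIs in both sets. Each group has 1 library of that second set. Across pairs of libraries 266 barcodes were shared, and of the cells behind them 3 in the first and 1 in the second library of a pair were regulatory T cells. One regulatory T cell of vehicle replicate 1 held at least 1% of its UMIs in macrophage, endothelial or B cell markers, with 259 UMIs of the macrophage list.

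The markers of the label were found in these cells. Among the 126 cells, 61.9% had a UMI of Ctla4, 31.7% of Il2ra and 91.3% of Ikzf2 (Helios, a transcription factor of thymus-derived regulatory T cells), and 123 cells had a UMI of at least 1 of these genes. In conventional CD4 T cells the shares were 19.7% for Ctla4, 8.89% for Il2ra and 20.5% for Ikzf2. In B cells, which should lack these genes, they were 5.15%, 0.546% and 0.390%, with median depths of 3488 UMIs in regulatory T cells, 3522 in conventional CD4 T cells and 2960 in B cells. When each cell was thinned to 1000 UMIs, Ctla4 was found in 25.6% of regulatory and 8.56% of conventional CD4 T cells, Il2ra in 13.6% and 1.48%, and Ikzf2 in 72.0% and 10.0%. Foxp3 itself, which chose the cells, had a UMI in 1 of 2565 B cells (0.0390%, exact 95% interval 0.000987 to 0.217%) and in 7 of 2620 CD8 T cells (0.267%, 0.107 to 0.550%).

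Foxp3 stood at 1 UMI in 60 of the members, at 2 in 38 and at 3 or more in 28. Just inside the limit, the cells with 1 Foxp3 UMI had a UMI of Ikzf2 in 91.7%, of Ctla4 in 60.0% and of Il2ra in 23.3%, at a median of 3227.5 UMIs per cell. With 3 or more Foxp3 UMIs the shares were 96.4%, 67.9% and 42.9%, at a median of 4522 UMIs. Just outside it, conventional CD4 T cells with Foxp3 at 0 may include regulatory T cells whose Foxp3 was missed at this depth. A further 19 kept cells had a Foxp3 UMI but failed the rule, 11 without a Cd3 UMI, 7 with a Cd8 UMI and 1 with more than 1 Cd79a UMI. Cd4, which the rule does not ask for, had a UMI in 62 of the 126 cells.

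The share of regulatory T cells was lower in the ginkgetin group by its mean, but the groups overlapped. Of all kept cells, regulatory T cells were 0.548%, 0.210% and 1.28% in vehicle replicates 1 to 3 and 0.229%, 0.173% and 0.357% in ginkgetin replicates 1 to 3, or 0.680% ± 0.548 against 0.253% ± 0.0940 (SD, n = 3 each; two-sided exact permutation p = 0.3). Of T cells, meaning kept cells with a Cd3 UMI and at most 1 Cd79a UMI, they were 2.16%, 0.938% and 5.65% against 0.574%, 0.842% and 1.58% (2.92% ± 2.45 against 0.998% ± 0.520, exact permutation p = 0.2). Of regulatory plus conventional CD4 T cells, where the latter passed the same rule with Foxp3 at 0 and at least 1 Cd4 UMI, they were 18.3%, 7.95% and 27.7% against 3.39%, 10.3% and 6.81%. That is 18.0% ± 9.90 against 6.82% ± 3.43 (exact permutation p = 0.2), with vehicle replicate 2 inside the range of the ginkgetin libraries. With 3 libraries per group this test cannot go below 0.1. Paired by replicate number, the ginkgetin library was lower in 3 of 3 pairs for kept cells and T cells and in 2 of 3 for CD4 T cells (exact sign-flip permutation p = 0.25, 0.25 and 0.5, where 0.25 is the smallest that 3 pairs allow). When every cell was thinned to 1000 UMIs before the rule was applied, the groups no longer overlapped for any of the 3 shares (18.7% ± 9.29 against 4.87% ± 2.61 of CD4 T cells, SD, n = 3 each, exact permutation p = 0.1), from 15, 3 and 18 against 2, 3 and 3 regulatory T cells. When a Cd4 UMI was asked of regulatory T cells too, the share of CD4 T cells was 8.71% ± 7.75 against 4.17% ± 1.87 with overlap (exact permutation p = 0.4). Within replicates 1 and 2 the difference of the share among CD4 T cells was -6.32 percentage points and in replicate 3 it was -20.9. Shares were read from sequenced cells, so fewer regulatory T cells and more of the others cannot be told apart.

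**Figure D1:**
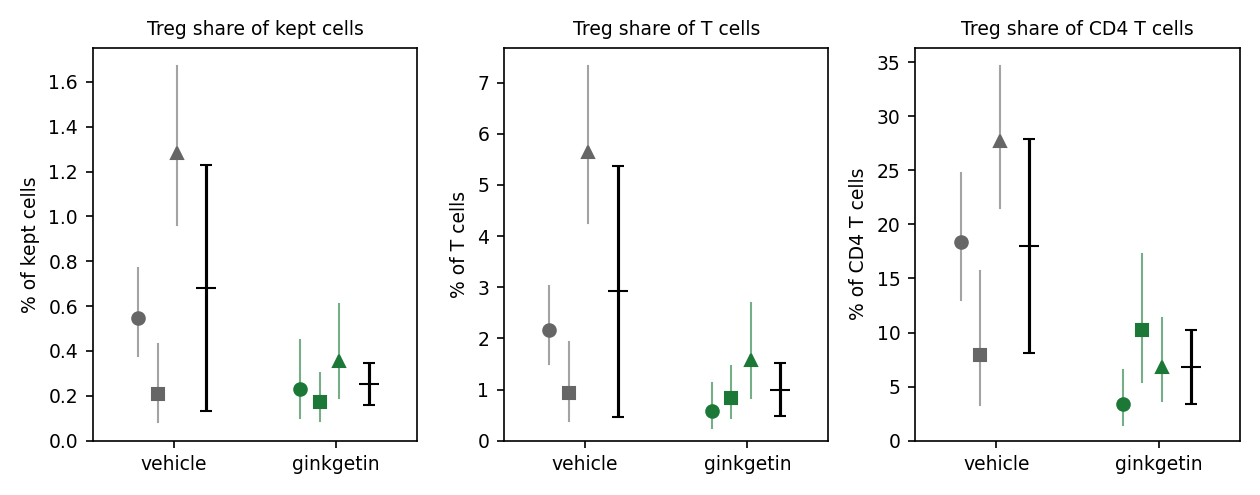
Share of regulatory T cells (in %, each axis from 0) among kept cells, T cells and CD4 T cells for vehicle (grey) and ginkgetin (green) libraries, with circles, squares and triangles for replicates 1, 2 and 3, thin lines for the exact 95% interval of counting error and black bars for the mean ± SD. Vehicle replicate 3 is highest in each panel (1.28%, 5.65% and 27.7%), and vehicle replicate 2 lies among the ginkgetin libraries.

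Regulatory T cells were then set against conventional CD4 T cells (877 cells) and CD8 T cells (2613 cells) of the same libraries to describe their program in this liver. Of 7366 genes tested, 58 were higher (0.787%) and 68 lower (0.923%) in regulatory than in conventional CD4 T cells at an edgeR adjusted p under 0.05 and a fold over 2. Of 13 tested members of the regulatory T cell identity list, 12 were higher and none lower, with a median log2 fold change of 2.07 against -0.10 over all genes tested. The number of called genes was 77 without ginkgetin replicate 3, 79 without vehicle replicate 3, 35 in replicates 1 and 2 and 26 without the library as a block. The genes of the rule, Foxp3, the Cd3 and Cd8 genes, Cd4 and Cd79a, were not tested.

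Ctla4 stood at 279, 289 and 538 CPM in regulatory T cells of vehicle replicates 1 to 3 and at 174, 206 and 579 CPM in those of ginkgetin replicates 1 to 3. In conventional CD4 T cells of the same libraries it was 79.0, 115 and 257 CPM against 82.6, 48.0 and 39.3 CPM, below the regulatory T cells in 6 of 6 libraries. Its log2 fold change was 2.07 ± 0.31 (SE, adjusted p = 0.000397). The 300 bases around its start site, chr1:60908775-60909074 on the plus strand of GRCm38.p6 (RefSeq, 250 bases before and 50 after the start), are shown because Ctla4 is a defining marker and returns below among the genes whose contrast differed between the groups. Capitals mark the letters TATAAA, searched as the TATA box motif, which began 40 bases after the annotated start and were found in 13.6% of 32,851 RefSeq promoters of this length, on either strand.
Ctla4: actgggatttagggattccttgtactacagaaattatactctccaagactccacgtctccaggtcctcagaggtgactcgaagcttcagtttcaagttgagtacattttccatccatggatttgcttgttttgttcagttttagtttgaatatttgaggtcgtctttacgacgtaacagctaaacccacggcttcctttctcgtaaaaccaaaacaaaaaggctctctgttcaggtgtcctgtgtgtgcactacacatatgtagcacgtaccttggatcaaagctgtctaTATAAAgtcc

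Il2ra was at 60.4, 41.3 and 134 CPM in the vehicle and 96.7, 176 and 193 CPM in the ginkgetin regulatory T cells, and at 17.2, 29.6 and 29.6 against 2.26, 25.4 and 49.2 CPM in conventional CD4 T cells (log2 fold change 2.04 ± 0.36, adjusted p = 0.00230). Every library had the higher level in regulatory T cells. Ikzf2 was at 1305, 1733 and 1525 CPM in the vehicle and 658, 1029 and 1167 CPM in the ginkgetin libraries, against at most 256 CPM in conventional CD4 T cells (log2 fold change 2.67 ± 0.28, adjusted p = 1.70e-05). Its relative Ikzf4 (Eos), a partner of FOXP3, was higher by 3.48 ± 0.51, and Nrp1, a semaphorin receptor, by 1.56 ± 0.34. Lrrc32 (GARP), which holds latent TGF-beta on the cell surface, was higher by 2.70 ± 0.58 from 20 UMIs in all. Izumo1r (folate receptor 4), Capg, an actin-capping protein, and Itgae (CD103, which binds E-cadherin of epithelium) were higher by 1.64 ± 0.21, 1.57 ± 0.38 and 3.96 ± 0.56. Icos, a costimulatory receptor, had an adjusted p of 0.0417 but a log2 fold change of 0.67 ± 0.17, below the limit of 1. Gpr83 and Tigit had too few UMIs to be tested. Gpr83 had 10 UMIs in regulatory and none in conventional CD4 T cells, at least 23.2-fold higher. The call of Capg was lost without ginkgetin replicate 2 (1.63) or ginkgetin replicate 3 (0.94), that of Lrrc32 without vehicle replicate 3 (2.75) or ginkgetin replicate 3 (2.05), and that of Nrp1 without ginkgetin replicate 3 (1.35).

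**Figure D2:**
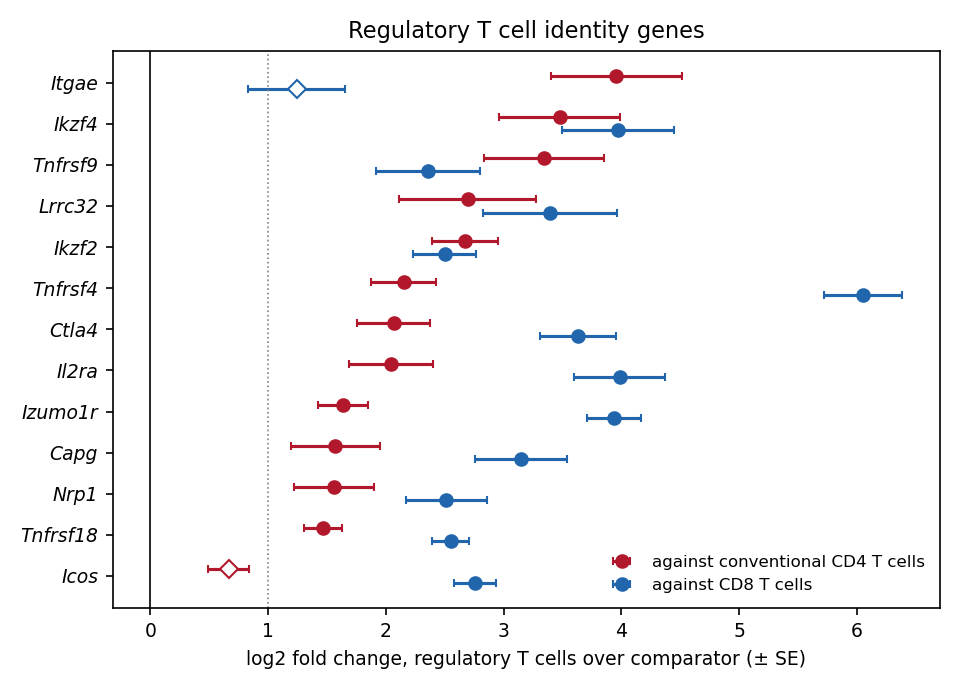
Log2 fold change ± SE of the 13 tested identity genes in regulatory T cells over conventional CD4 T cells (red) and over CD8 T cells (blue). Filled circles are called, open diamonds are not, and the dotted line is a fold of 2. All 13 lie to the right of 0, with Icos over CD4 and Itgae over CD8 T cells as the open symbols.

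Receptors of the tumor necrosis factor family, which give costimulation, made up most of the calls of the costimulatory and coinhibitory list, where 6 of 12 tested members were higher and none lower (median 1.14). Tnfrsf4 (OX40) was at 566, 413 and 751 CPM in the vehicle and 135, 206 and 322 CPM in the ginkgetin regulatory T cells (log2 fold change over conventional CD4 T cells 2.15 ± 0.28, adjusted p = 8.68e-05). Tnfrsf18 (GITR) was at 558, 371 and 751 against 96.7, 265 and 331 CPM, with a log2 fold change of 1.47 ± 0.16. Tnfrsf9 (4-1BB) was at 174, 495 and 209 against 19.3, 0 and 27.6 CPM (3.34 ± 0.51). The vehicle libraries were above the ginkgetin libraries for each of these 3 genes. Tnfrsf1b (TNF receptor 2) and Cd27 were higher by 1.06 ± 0.20 and 1.21 ± 0.21. The checkpoint receptor genes Pdcd1 (1.22 ± 0.49) and Lag3 (0.71 ± 0.88) did not pass. Over all deposited cells Lag3 had 9 UMIs in vehicle replicate 1 and 134 to 617 in the other libraries.

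In the interleukin-2 list Il2ra was the 1 higher and Socs2 the 1 lower of 11 tested members (median -0.12). The shared chains had log2 fold changes of -0.71 ± 0.27 for Il2rb and -0.12 ± 0.17 for Il2rg, neither called. Socs2, a feedback inhibitor of cytokine signals, was lower (-1.97 ± 0.39, adjusted p = 0.00662), and this call was lost without vehicle replicate 3 (-1.49). Stat5a (0.68 ± 0.31), Stat5b (0.44 ± 0.26), the signal transducers of the receptor, and Cish (-0.04 ± 0.26), their target, were not called. Il2 itself had 5 UMIs in regulatory T cells.

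Among suppressive effectors Ctla4 and Areg were higher, none of 10 tested was lower, and the median was 0.53. Areg was at 226, 660.2 and 454 CPM in the vehicle and 58.0, 0 and 0 CPM in the ginkgetin regulatory T cells. In conventional CD4 T cells it was 5.15, 29.6 and 38.9 CPM and 0 in all 3 ginkgetin libraries. Its log2 fold change was 3.89 ± 0.42 (adjusted p = 8.10e-05) and it was higher in 4 of 6 libraries, ginkgetin replicates 2 and 3 having no UMI in either cell type. Over all deposited cells Areg had 0 UMIs in ginkgetin replicate 3 and 11 to 340 in the other libraries. Il10 had 8 UMIs in all regulatory T cells and Ebi3, a subunit of interleukin-35, had 17, with Il12a, the other subunit, at 0. Tgfb1 (0.10 ± 0.22), Entpd1 (CD39, -0.29 ± 0.53), Nt5e (CD73, 0.96 ± 0.31) and Fgl2 (-0.11 ± 0.34) were not called. Over all deposited cells Tgfb1 had 696 UMIs in vehicle replicate 1 and 1787 to 14,093 in the other libraries. The promoter of Areg, chr5:91139349-91139648 on the plus strand of the same build, is shown because Areg had the lowest p between the groups. Capitals mark the cAMP response element TGACGTCA, beginning 61 bases before the start and present in 1.79% of the promoters, and the TATA box 31 bases before the start.
Areg: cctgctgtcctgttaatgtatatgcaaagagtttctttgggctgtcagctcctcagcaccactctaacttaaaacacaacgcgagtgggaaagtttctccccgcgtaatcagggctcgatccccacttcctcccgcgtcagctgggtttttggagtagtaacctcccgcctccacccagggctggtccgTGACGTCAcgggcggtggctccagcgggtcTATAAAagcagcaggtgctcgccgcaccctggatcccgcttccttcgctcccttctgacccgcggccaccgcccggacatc

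The tissue and effector list had 4 of 14 tested members higher and none lower (median 0.86). Il1rl1 was at 37.7, 41.3 and 88.1 CPM in the vehicle and 58.0, 29.4 and 147 CPM in the ginkgetin regulatory T cells and at most 13.7 CPM in conventional CD4 T cells (log2 fold change 3.59 ± 0.77, adjusted p = 0.0143). This call was lost without vehicle replicate 3 (3.52) or ginkgetin replicate 3 (2.43). Klrg1, a receptor of late effector cells, was at 226, 330.1 and 69.5 against 38.7, 0 and 239 CPM (5.20 ± 0.49, adjusted p = 6.38e-06). Areg and Tnfrsf9 made up the 4. Gata3 (0.68 ± 0.18), Rora (0.65 ± 0.22), Batf (0.22 ± 0.27) and Maf (0.06 ± 0.31), transcription factors of such cells, did not reach the limits against conventional CD4 T cells.

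Of 13 tested members of the resting and central list, 3 were lower and 1 higher. Tcf7, a transcription factor of naive and memory T cells, was lower (log2 fold change -1.94 ± 0.23, adjusted p = 3.64e-05), as were the survival gene Bcl2 (-2.14 ± 0.25) and the chromatin organizer Satb1 (-1.66 ± 0.30). In the homing and adhesion list 3 of 20 tested members were higher, Cxcr4 and Itgae among them, and 2 were lower. Among the lower ones was the chemokine receptor gene of effector cells Cxcr6 (-4.08 ± 0.45, adjusted p = 1.97e-05). Cxcr6, which keeps T cells in the liver sinusoids, had 13 UMIs in the 126 regulatory T cells and was at 266, 207 and 474 against 287, 232 and 528 CPM in conventional CD4 T cells. The call of Cxcr4 was lost without vehicle replicate 3 (1.02).

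Of 8 tested members of the helper T cell list 4 were lower (Ifng, Il4, Tbx21 and Cd40lg) and none higher, with a median of -2.77. Ifng, the cytokine of type 1 helper cells, had 2 UMIs in all regulatory T cells and 541 in conventional CD4 T cells, a ratio of 38.8 per UMI counted (95% counting interval 10.7 to 321). Its level in conventional CD4 T cells was 177, 126 and 221 CPM in the vehicle and 128, 56.5 and 106 CPM in the ginkgetin libraries. Il4 had no UMI in regulatory T cells and 190 in conventional CD4 T cells, at least 9.09-fold lower against a limit of 3 UMIs over all libraries. Tbx21 (T-bet, -3.20 ± 0.64) and Cd40lg (CD40 ligand, -3.02 ± 0.67) were lower, calls that were lost without vehicle replicate 3 for Tbx21 (-2.55), without ginkgetin replicate 2 for Cd40lg (-2.85) and without ginkgetin replicate 3 for both (-2.91 and -2.60). Ltb (0.23 ± 0.13) was not called. In the T cell receptor list 2 of 8 tested members were lower, Thy1 (-1.57 ± 0.17) among them, and Lck, Lat and Zap70 were not called. Zbtb16, the factor of natural killer T cells, had a UMI in 0 of 126 regulatory T cells (3 counts would be 2.38% of cells with a UMI, which is no limit on cells expressing it), in at most 4.94% of conventional CD4 T cells of 5 libraries and in 27.5% of those of ginkgetin replicate 3. Without the conventional CD4 T cells that held it, 128 genes were called.

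In the remaining lists few members were called. No member of the cell cycle list (15 tested, median 0.07) or of the dissociation and immediate-early list (14 tested, median -0.18) was called, Nfkbia was the 1 gene called of 13 in the NF-kB list (1.01 ± 0.21, list median 0.56), and Ifi27l2a was the 1 called of 13 in the interferon list (1.44 ± 0.23, list median -0.22). Leaving out vehicle replicate 1 (0.82), ginkgetin replicate 1 (0.98) or vehicle replicate 3 (0.88) ended the call of Nfkbia. Outside the lists, Itgav (2.01 ± 0.26), an integrin chain that binds latent TGF-beta, the proteoglycan gene Sdc4 (1.79 ± 0.41), the arginine synthesis gene Ass1 (1.77 ± 0.25) and Arl5a (1.75 ± 0.25) were higher. St3gal6 (-3.66 ± 0.52), a sialyltransferase, and Pde3b (-3.11 ± 0.49), a phosphodiesterase, were lower. These genes were picked for moving alike in all 6 libraries. The call of Sdc4 was lost without vehicle replicate 1 (1.56) or ginkgetin replicate 3 (1.58).

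Against CD8 T cells 183 genes were higher (2.48%) and 181 lower (2.46%), in a comparison that shares its regulatory T cells with the one above. Of the identity list 12 of 13 tested members were higher (median 3.15), now with Icos (2.75 ± 0.18) and without Itgae (1.24 ± 0.41). Tnfrsf4 had the largest difference among the tested members of this list (6.05 ± 0.33, edgeR adjusted p = 2.56e-10). Gpr83, not tested, had 10 UMIs in regulatory and 1 in CD8 T cells, a ratio of 202 (95% counting interval 28.7 to 8748). Gata3 (1.54 ± 0.18), Maf (1.78 ± 0.32) and Rora (1.84 ± 0.23) were called here, so that 7 of 14 tissue and effector genes were higher. Among homing receptors Ccr4, Ccr6, Cxcr4 and Itgb7 were higher, the first from 24 UMIs in regulatory T cells and the second from 15. The cytotoxic genes Gzmb (-2.84 ± 0.53) and Prf1 (-3.65 ± 0.64) were lower, although both also stand in the suppressive effector list. Over all deposited cells Prf1 had 17 to 56 UMIs in replicates 1 and 2 but 522 and 967 in the replicates 3. Replicates 1 and 2 thus give little reading of it. Gzmk, a granzyme of CD8 T cells, had no UMI in regulatory T cells and 1769 in CD8 T cells, at least 29.3-fold lower. The killer cell receptor gene Klra9 and Dapl1 had none either, at least 17.4-fold and 11.6-fold lower, and the chemokine gene Ccl4 was lower too (-6.71 ± 0.67). Areg had 147 UMIs in regulatory and 5 in CD8 T cells, a ratio of 593 per UMI counted (95% counting interval 248 to 1852). Outside the lists Nav2 (4.12 ± 0.43) and Nrn1 (3.13 ± 0.46) were higher. Without a block for the library 166 genes were called. The call of Itgb7 (1.02 ± 0.23) was lost without vehicle replicate 2 (0.99) or ginkgetin replicate 3 (0.88), and those of Nt5e (1.37 ± 0.30) and Tnfrsf9 (2.36 ± 0.44) without vehicle replicate 3 (1.35 and 1.58).

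The ginkgetin and vehicle groups were compared within regulatory T cells, with 2 libraries per group (vehicle replicates 1 and 3, ginkgetin replicates 2 and 3). No gene of 1812 tested was called (0.0%) by edgeR, and DESeq2 called 0 as well. At an unadjusted p under 0.05 there were 98 genes, and the lowest adjusted p was 0.384, for Areg. Between 10 and 33 genes were called when 1 of these libraries was left out, 5 with the barcode set as a block and 1, Id2, when all 6 libraries were used, where the replicate block ended that call (0 genes). Areg and Id2 were called when vehicle replicate 1, vehicle replicate 3, ginkgetin replicate 2 or ginkgetin replicate 3 was left out, each time with 1 library remaining in an arm. The 10 genes with the lowest p among those of 50 CPM or more were Areg, Id2, Bmyc, Tnfrsf9, Lyz2, Cd83, Bcl2a1d, Aldoa, Lef1 and Tpi1, of which Lef1 had a positive and the others a negative log2 fold change. Values over all 6 libraries are given beside the share of genes whose groups did not overlap, which was 11.4% lower and 4.69% higher in the ginkgetin group. In summed counts a lower level cannot be told apart from fewer cells with the transcript.

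Macrophage, cytotoxic and dendritic list transcripts in these cells moved with the groups. The summed level of the 9 macrophage markers in regulatory T cells was 2535, 701 and 357 CPM in vehicle replicates 1 to 3 and 96.7, 206 and 64.3 CPM in ginkgetin replicates 1 to 3, with Marco at 0. Without the mixed-lineage cell vehicle replicate 1 was at 645 CPM. Conventional CD4 T cells showed 254 to 3015 CPM of the same list in the vehicle and 59.0 to 310.1 CPM in the ginkgetin libraries. The 6 natural killer and cytotoxic markers summed to 3168, 1238 and 909 CPM against 58.0, 353 and 202 CPM, most of it Ccl5. The 6 hepatocyte markers summed to 505, 908 and 890.1 CPM against 38.7, 765 and 156 CPM. The endothelial list overlapped, with 90.5, 82.5 and 102 CPM against 96.7, 794 and 175 CPM. Of the B cell list, which summed to 765 and 965 CPM in the replicates 3 and at most 29.4 CPM elsewhere, Ebf1 and Pax5 were at 0. The dendritic list summed to 1298, 165 and 125 against 38.7, 118 and 9.19 CPM without overlap, also without the mixed-lineage cell (151 CPM in vehicle replicate 1), with 5 of its 7 markers at 0. Of the stellate list 3 of 5, and of the neutrophil list, at most 88.2 CPM, Camp was at 0. The gamma delta list and Ighm had no UMI in any cell of replicates 1 and 2, whose libraries therefore give no reading of them. In the replicates 3 the gamma delta list summed to 23.2 CPM in the vehicle and 0 in the ginkgetin regulatory T cells. The part of these transcripts in the differences below was not tested.

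Areg was the gene with the lowest p between the groups. It had a UMI in 11 of 33, 2 of 7 and 22 of 53 regulatory T cells of vehicle replicates 1 to 3 and in 2 of 8, 0 of 12 and 0 of 13 of ginkgetin replicates 1 to 3. The levels given above did not overlap, since the lowest vehicle library stood at 226 CPM and the highest ginkgetin library at 58.0 CPM. Over all deposited cells Areg had 99, 46 and 340 UMIs in the vehicle and 13, 11 and 0 in the ginkgetin libraries. Ginkgetin replicate 3 may therefore give no reading of Areg, and its 0 enters the levels, ratio and shares given here. Pooled, 144 UMIs stood against 3, a ratio of 25.1 per UMI counted (95% counting interval 8.41 to 123). The unadjusted p was 0.000212 and the edgeR adjusted p 0.384. After thinning to 1000 UMIs 21.2% ± 5.98 of the vehicle and 4.17% ± 7.22 of the ginkgetin regulatory T cells held Areg (SD, n = 3 each, exact permutation p = 0.1, the smallest possible). In conventional CD4 T cells 36 UMIs in the vehicle libraries stood against 0, at least 19.7-fold higher. Only a ratio pooled over libraries is given, because a fold fitted against ginkgetin replicates 2 and 3, both at 0, has no bound. Among vehicle regulatory T cells the 35 with an Areg UMI had a UMI of Tnfrsf4 in 85.7%, of Ctla4 in 77.1%, of Klrg1 in 28.6% and of Ccr7 in 2.86%, but of Tnfrsf9 in 34.3%, of Il2ra in 25.7%, of Tnfrsf18 in 80.0% and of Icos in 65.7%. In the 58 without one these shares were 58.6%, 55.2%, 15.5% and 8.62%, and 39.7%, 25.9%, 77.6% and 62.1%, at like median depths of 3323 and 3422.5 UMIs, which is a description of single cells of 3 libraries.

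Of the 13 members of the NF-kB list 7 could be tested between the groups. None was called, the median log2 fold change was -1.23 against 0.02 over all genes tested, and in 5 (Nr4a1, Nfkbia, Rel, Traf1 and Tnfaip3) the ginkgetin libraries were lower without overlap. Nfkbia, the inhibitor that NF-kB induces, was at 1026, 908 and 1525 CPM in the vehicle and 329, 176 and 395 CPM in the ginkgetin libraries (log2 fold change -1.99 ± 0.56, edgeR adjusted p = 0.711). Thinned to 1000 UMIs, the share of regulatory T cells with Nfkbia was 51.7% ± 7.82 in the vehicle and 16.5% ± 8.66 in the ginkgetin group (n = 3, SD, permutation p = 0.1, exact). Conventional CD4 T cells had 345, 426 and 642 CPM against 187, 229 and 242 CPM of Nfkbia, also without overlap. Cd83, a surface protein induced on activation, was at 181, 165 and 209 CPM against 0, 29.4 and 36.8 CPM (-2.37 ± 0.58, edgeR adjusted p = 0.711).

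Of 11 tested identity genes none was called between the groups, the median was -0.60 and 7 were lower in ginkgetin without overlap (Ikzf2, Nrp1, Tnfrsf18, Tnfrsf4, Tnfrsf9, Icos and Capg). Their p-values were between 0.00217 for Tnfrsf9 and 0.648 for Ikzf2. The fitted log2 fold change of Ikzf2 was small, between -0.345 and -0.125 when 1 library was left out. Tnfrsf9 had a log2 fold change of -3.09 ± 0.71 (adjusted p = 0.711), and Tnfrsf4 one of -1.16 ± 0.49 (adjusted p = 0.843). Ctla4 (0.10 ± 0.57) and Il2ra overlapped between the groups, and the sign for Ctla4 turned without vehicle replicate 1 (-0.29) or ginkgetin replicate 3 (-0.80). Foxp3, which chose the cells, was at 430, 413 and 454 CPM against 251, 588 and 377 CPM. The checkpoint gene Pdcd1 had 98.1, 124 and 227 CPM against 19.3, 29.4 and 18.4 CPM (-2.83 ± 0.79, edgeR adjusted p = 0.711).

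The resting and central list had the opposite sign, with 9 tested, a median of 1.15, none called, 4 higher in ginkgetin without overlap (Ccr7, Tcf7, Klf2 and S1pr1) and 1 lower (Il7r). Ccr7 was at 45.3, 0 and 46.4 CPM in the vehicle and 96.7, 147 and 165 CPM in the ginkgetin libraries (1.88 ± 0.52, edgeR adjusted p = 0.711). The 0 in vehicle replicate 2 has a limit of 124 CPM, above the 96.7 CPM of ginkgetin replicate 1. For Ccr7 the lack of overlap thus holds for the measured levels only. Klf2, a factor of quiescence and recirculation, was at 241, 165 and 399 against 426, 471 and 698 CPM, and S1pr1, the receptor for leaving tissue, at 75.4, 41.3 and 107 against 193, 118 and 257 CPM. The 41.3 CPM of S1pr1 in vehicle replicate 2 also lies below the limit of 124 CPM. Lef1, a partner of Tcf7, was at 67.9, 124 and 51.0 against 38.7, 176 and 202 CPM (1.81 ± 0.49, edgeR adjusted p = 0.711) with overlapping groups. After thinning, the share with Ccr7 was 1.65% ± 1.53 in the vehicle and 20.0% ± 9.57 in the ginkgetin group (n = 3, SD, permutation p = 0.1, exact).

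**Figure D3:**
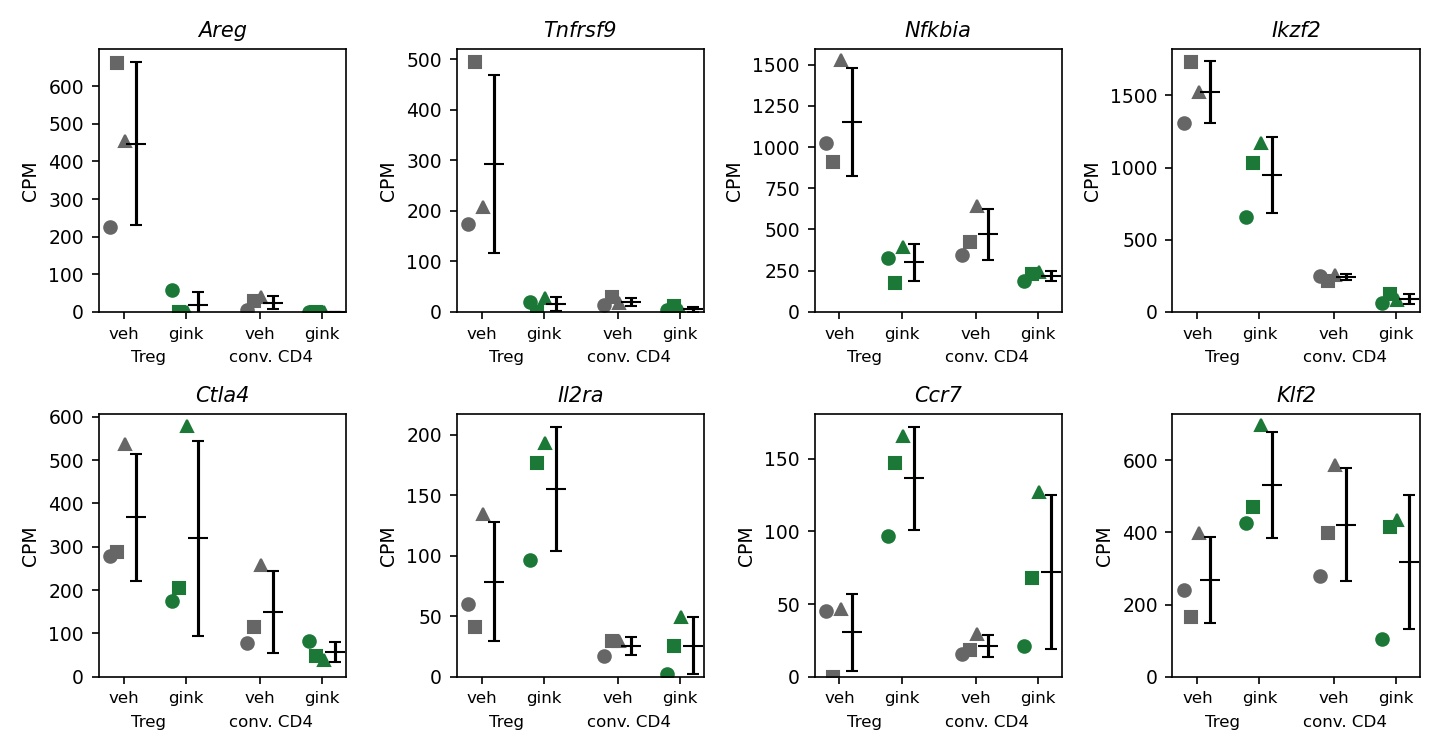
Level in CPM (each axis from 0) of 8 genes in regulatory and conventional CD4 T cells of vehicle (veh, grey) and ginkgetin (gink, green) libraries, with circles, squares and triangles for replicates 1, 2 and 3 and black bars for the mean ± SD. In regulatory T cells Areg, Tnfrsf9, Nfkbia and Ikzf2 lie lower and Ccr7 and Klf2 higher in all 3 ginkgetin libraries, whereas Ctla4 and Il2ra overlap. The Ccr7 value of 0 in vehicle replicate 2 has a limit of 124 CPM.

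Heat shock and immediate-early genes can be induced by dissociation of tissue. Of 11 tested in this list none was called between the groups, the median was -0.82, and Jun, Hspa1a, Hsp90aa1, Hspa8 and Dnajb1 were lower in ginkgetin without overlap. Hspa1a was at 588, 289 and 218 CPM against 38.7, 29.4 and 82.7 CPM in regulatory T cells and at 699, 533 and 371 against 43.0, 2.82 and 27.0 CPM in conventional CD4 T cells. The macrophage gene Lyz2 was at 1011, 330.1 and 167 against 38.7, 29.4 and 18.4 CPM (-4.62 ± 1.10, edgeR adjusted p = 0.711). Without the mixed-lineage cell vehicle replicate 1 was at 218 CPM of Lyz2 and the log2 fold change was -3.0 (edgeR adjusted p = 0.704). Aldoa and Tpi1 of glycolysis had log2 fold changes of -1.95 ± 0.51 and -1.99 ± 0.54 (edgeR adjusted p = 0.711 for both). Bmyc and Bcl2a1d had -2.99 ± 0.66 and -3.12 ± 0.80 (edgeR adjusted p = 0.711 for both). In the cell cycle list 6 were tested with a median of 0.93 and none without overlap. Mki67, a gene of dividing cells, was at 7.54, 41.3 and 55.6 CPM against 309, 0 and 597 CPM, highest in ginkgetin replicate 3 and at 0 in ginkgetin replicate 2. In ginkgetin replicate 3 a cell of 16,189 UMIs held 44 Mki67 UMIs and a cell of 19,986 UMIs held 17. In vehicle replicate 3 a cell of 21,678 UMIs held 11. The other regulatory T cells of these libraries held at most 3 each. In the other lists none was called either. The median was 0.22 of 6 interleukin-2 genes (Cish lower without overlap), -0.10 of 5 suppressive effectors (Areg), -0.42 of 10 costimulatory and coinhibitory receptors (Icos, Pdcd1, Tnfrsf4, Tnfrsf9 and Tnfrsf18) and -0.14 of 9 tissue and effector genes (Areg, Batf and Tnfrsf9). It was 0.23 of 13 homing genes (Ccr7, Itgal and S1pr1 higher and Cd44 lower without overlap), 0.09 of 7 T cell receptor genes (Cd2 lower), -0.36 of 2 helper genes and -0.27 of 5 interferon genes.

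**Figure D4:**
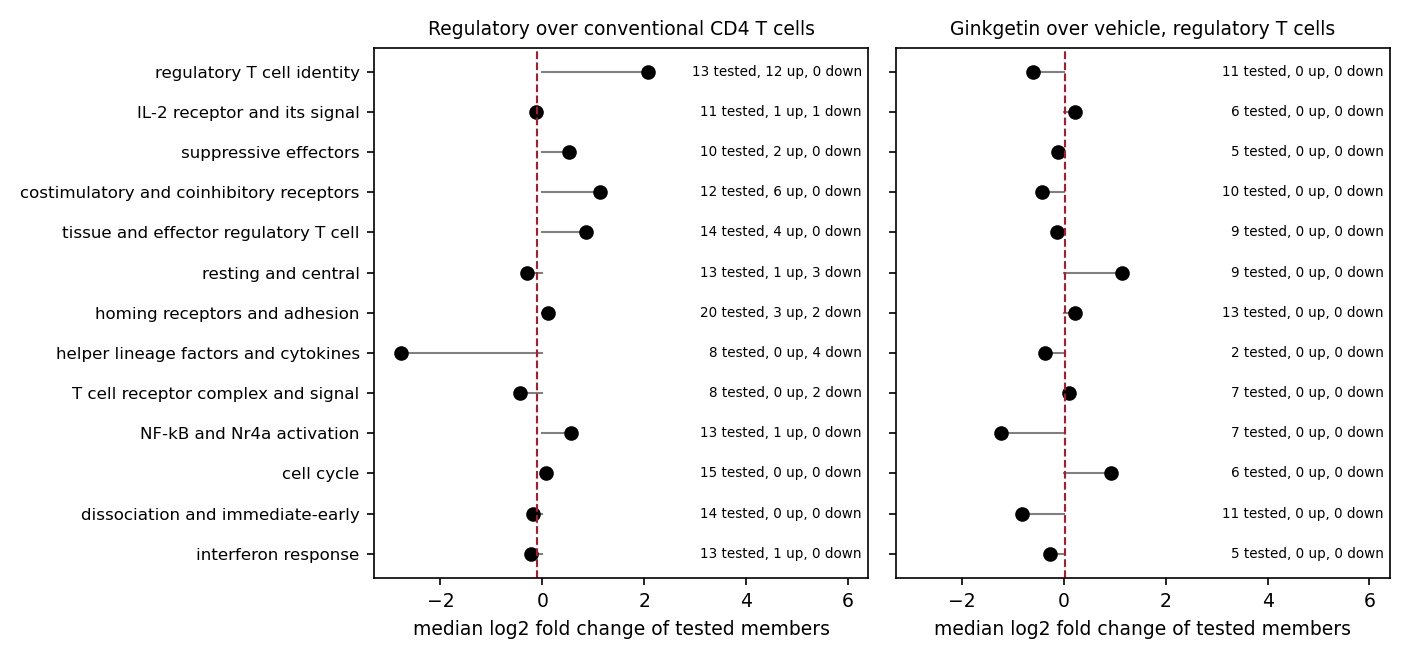
Median log2 fold change of the tested members of each pathway list in regulatory over conventional CD4 T cells (left) and in ginkgetin over vehicle regulatory T cells (right), with the numbers tested and called beside each point and the median over all genes tested as a dashed red line. The identity list has the highest median on the left (2.07, 12 of 13 called), and the resting list (1.15) and the NF-kB list (-1.23) lie farthest apart on the right among these pathway lists, where none is called.

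Whether the groups differed in regulatory T cells as they did in conventional CD4 T cells was tested with an interaction of cell type and group in the same 4 libraries, each library being a block. Of 4740 genes 2 were higher (0.0422%) and 8 lower (0.169%), and with all 6 libraries and a term for the replicate number in the cell type contrast, as a replicate block, 24 were called, against 8 with all 6 libraries and no such term. Id2 gave the lowest p. In regulatory T cells it was at 619, 660.2 and 468 CPM in the vehicle and 38.7, 0 and 45.9 CPM in the ginkgetin libraries, without overlap. In conventional CD4 T cells it was at 1006, 681 and 662 CPM against 987, 875 and 1085 CPM, with overlap. Id2, an inhibitor of basic helix-loop-helix factors that effector T cells express, thus had 199 UMIs in vehicle against 7 in ginkgetin regulatory T cells, a ratio of 14.8 per UMI counted (95% counting interval 7.07 to 37.4). The difference of the log2 fold changes was -4.42 ± 0.50 (SE, edgeR adjusted p = 4.42e-07), and Id2 was called in all 26 alternatives. Of these, the fits without vehicle replicate 2 or ginkgetin replicate 1 were the main fit unchanged, and several others left 1 library in an arm. The highest edgeR adjusted p was 0.00136, after thinning. Within regulatory T cells alone its log2 fold change was -3.94 ± 0.72 (adjusted p = 0.433). In CD8 T cells Id2 was at 1238, 649 and 426 CPM against 678, 396 and 545 CPM. The promoter of Id2, chr12:25096043-25096342 on the minus strand of GRCm38.p6, is shown as the start region of the gene this comparison turns on, and it held none of the motifs searched, TGACGTCA, TATAAA, the forkhead motif GTAAACA (in 3.65% of promoters), the AP-1 motif TGANTCA (7.81%) and the STAT motif TTCNNNGAA (8.30%).
Id2: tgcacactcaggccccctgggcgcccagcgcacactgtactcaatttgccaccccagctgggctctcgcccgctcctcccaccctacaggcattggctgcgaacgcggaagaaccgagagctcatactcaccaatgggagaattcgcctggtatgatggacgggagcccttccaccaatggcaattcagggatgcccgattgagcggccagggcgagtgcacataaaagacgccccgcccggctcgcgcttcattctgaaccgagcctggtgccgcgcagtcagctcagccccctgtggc

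The other genes of this test were less stable. Ccl5, a chemokine of cytotoxic cells, was at 2874, 1238 and 538 CPM against 58.0, 265 and 119 CPM in regulatory and 2746, 4631 and 3228 against 5481, 2954 and 1391 CPM in conventional CD4 T cells (difference -2.43 ± 0.46, adjusted p = 0.00695). Fam46a was at 174, 165 and 162 against 58.0, 29.4 and 55.1 CPM in regulatory and 37.8, 44.4 and 46.7 against 47.5, 73.4 and 98.3 CPM in conventional CD4 T cells (-2.97 ± 0.62, adjusted p = 0.0163). Rgs2 (-2.01 ± 0.47, adjusted p = 0.0499) and Dennd4a (-3.40 ± 0.67, adjusted p = 0.00882) were lower as well. Klrb1c, Klrd1 and Bhlhe40 were at 0 in the regulatory T cells of ginkgetin replicates 2 and 3, so that their fitted folds are no bound. Ctla4 and Capg had positive differences of 1.95 ± 0.45 and 2.12 ± 0.48 (adjusted p = 0.0444 and 0.0388). For Ctla4 the conventional CD4 T cells of the ginkgetin libraries were at 82.6, 48.0 and 39.3 CPM, against 79.0, 115 and 257 CPM in the vehicle libraries. Capg was at 528, 701 and 635 CPM in the vehicle and 426, 147 and 505 CPM in the ginkgetin regulatory T cells, and at 331, 118 and 276 against 29.4, 62.1 and 32.8 CPM in conventional CD4 T cells, lower in ginkgetin without overlap in both. Without ginkgetin replicate 3 the differences were 0.46 for Ctla4 and -0.01 for Capg. In that library 1 of 13 regulatory T cells, with 4362 UMIs in all, held 20 UMIs of Ctla4. The part of this cell in the difference was not tested. Each gene other than Id2 lost its call without vehicle replicate 1 and without ginkgetin replicate 3, and each but Id2 and Ccl5 without vehicle replicate 3. Ccl5 moved to -1.12 without vehicle replicate 1, Ctla4 to 1.40 without vehicle replicate 3 and Rgs2 to -1.30 without ginkgetin replicate 3. When conventional CD4 T cells with a Zbtb16 UMI were left out 7 genes were called, 6 of them among the 10, and Ctla4 (1.89), Capg (1.86), Dennd4a (-3.07) and Rgs2 (-1.80) were not, at differences near those above.

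**Figure D5:**
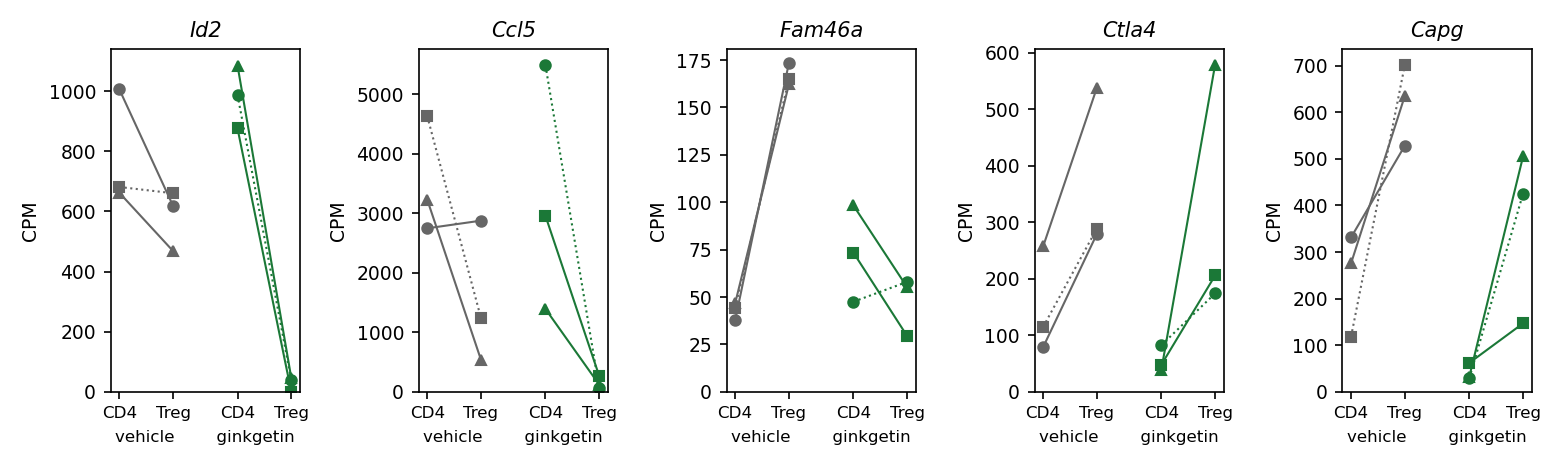
Level in CPM (each axis from 0) of 5 genes in conventional CD4 (CD4) and regulatory T cells (Treg) of each library, joined by a line, with grey for vehicle and green for ginkgetin, symbols for replicates 1 (circle), 2 (square) and 3 (triangle) and dotted lines for the libraries left out of the test. Id2 drops to at most 45.9 CPM in the ginkgetin regulatory T cells from at least 875 CPM in their conventional CD4 T cells, whereas the vehicle lines end at 468 CPM or more.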

How the data were processed

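The samples were 6 liver libraries, 3 vehicle and 3 ginkgetin, grouped by their labels. The authors deposited UMI counts per gene and cell (not normalized), with GRCm38/mm10 in the submitters' processing notes, and the aligner and annotation are not given in the sources used here. The study's stated filter of 250 to 5000 UMIs was an alternative here, and cells of under 5000 genes and under 5% mitochondrial UMIs were kept. T cell types were set by gates on UMIs, no clustering or doublet caller was used, and cells with at least 1% of UMIs in macrophage, endothelial or B cell markers were left out in an alternative. Counts were summed per library and cell type with at least 10 cells and tested with edgeR 4.0.16 (R 4.3.3, quasi-likelihood, TMM, filterByExpr), with the library as a block between cell types and in the interaction. Benjamini-Hochberg adjusted p under 0.05 with a fold over 2 made a call. On simulated data the cell type test recovered 169 of 200 changed genes (84.5%, 7061 genes), with 12 false calls (6.63% of calls). The group test recovered 93 of 152 (61.2%, 1892 genes), with 2 false calls (2.11%). The simulation set 1 fixed dispersion of 0.05, not fitted to these data, and changed abundant genes only. It therefore does not give the power of the tests on these data. Genes with UMIs in only 1 of the 2 gene symbol sets were not tested.

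Shares were tested with exact permutation tests (SciPy 1.17.1). Intervals are Clopper-Pearson or exact ratio intervals at 95%, and these and the limit of 3 counts cover counting error only. Same-numbered libraries deviated together in regulatory T cells (r = 0.261, 0.170 and 0.547 for replicates 1, 2 and 3). CD8 T cells gave 0.304, 0.225 and 0.568 and conventional CD4 T cells 0.270, 0.0341 and 0.520. Unlike-numbered pairs of replicates 1 and 2 were also positive in regulatory (0.141 and 0.0813) and conventional CD4 T cells (0.183 and 0.250). Pairs of either with replicate 3 were negative in regulatory T cells (-0.377 to -0.244). These values do not separate the replicate number from the barcode set, so paired tests and the replicate block are given only as alternatives. Alternatives were DESeq2 1.42.0, other filters, gates and blocks, thinning (seed 11) and leaving out each library. The gate, members and gene lists were chosen with earlier results of these data known. Named genes were list members, the 10 largest rises and 6 largest falls moving alike in every library at 50 CPM or more, or, with no call, the 10 lowest p. Promoters came from a table made from RefSeq (GRCm38.p6), where 10 of the 15 identity genes were matched. Some genes of the lists are not reported here, and the list counts include them.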

Additional observations from a re-analysis of the deposited data

Results flagged for a closer look

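For 10 genes the difference between the groups was not the same in regulatory and conventional CD4 T cells by the interaction test of edgeR, given as the log2 fold change between groups in regulatory minus that in conventional CD4 T cells. Lower were Id2 (-4.42, adjusted p = 4.42e-07), Ccl5 (-2.43, 0.00695), Dennd4a (-3.40, 0.00882), Fam46a (-2.97, 0.0163) and Rgs2 (-2.01, 0.0499). Higher were Capg (2.12, 0.0388) and Ctla4 (1.95, 0.0444). Klrb1c (-10.46), Klrd1 (-9.17) and Bhlhe40 (-8.28) had no UMI in the tested ginkgetin regulatory T cells, so that these fitted values are no bound. Pooled over libraries, Klrb1c was at least 1.22-fold and Klrd1 at least 2.09-fold higher in vehicle regulatory T cells, and Bhlhe40 had 55 UMIs against 1 (ratio 28.7, 95% counting interval 4.94 to 1155). All but Id2 lost the call without vehicle replicate 1 or without ginkgetin replicate 3, where Capg was at -0.011 and Ctla4 at 0.46, and DESeq2 called 1 gene, Id2. The macrophage and cytotoxic marker sums moved with the groups as given above, and their part in these values was not tested.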

How the results depend on the processing

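The 3 shares were lower in the ginkgetin group under all 15 alternatives each, with differences without 1 library of -0.662 to -0.126, -2.91 to -0.551 and -16.2 to -6.33 percentage points for kept, T and CD4 T cells. With a Cd4 UMI required they were -0.137, -0.656 and -4.54 (exact permutation p = 0.7, 0.7 and 0.4), and with thinning before the gate -0.197, -1.01 and -13.8 (p = 0.1 each, without overlap). Paired by replicate number (a replicate block), the sign-flip p was 0.25, 0.25 and 0.5, with 0.25 the smallest possible. The calls against conventional CD4 T cells (126) became 299 with no gene filter, 26 with no library block, 35 in replicates 1 and 2, 82 after thinning and 77 to 151 without 1 library, and those against CD8 T cells (364) became 570, 166, 165, 167 and 234 to 358. Between the groups (0) the counts were 5 with the barcode set as a block (4 with all 6 libraries), 15 with a Cd4 UMI required, 13 with at least 2 Foxp3 UMIs, 30 with no gene filter, 7 with the UMI filter, 1 with all 6 libraries (0 with the replicate block, 5 by DESeq2) and 0 to 33 without 1 library, where 0 is only the unchanged fit without a library that was never in it and the others gave 10 to 33 (0 to 5 from 6 libraries). For the interaction (10) they were 16 with the barcode block, 1 by DESeq2 with 4 or 6 libraries, 47 with at least 2 Foxp3 UMIs, 24 with 6 libraries and the replicate block together (8 with 6 libraries alone), 2 after thinning, 4 with the UMI filter and 2 to 51 without 1 library (4 to 22 from 6).

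Signs turned for Ctla4 between the groups (0.10), to -0.21 with no gene filter, -0.96 with the UMI filter, -0.027 with 6 libraries, -0.10 with 6 libraries and the replicate block and -0.11 with 6 libraries and the barcode block, and from 6 libraries when 1 was left out (-0.23 without vehicle replicate 1, -0.15 without vehicle replicate 2, -1.01 without ginkgetin replicate 3; from 4 libraries -0.80 to 0.65, -0.29 without vehicle replicate 1). They also turned for Il2ra (-0.13 with at least 2 Foxp3 UMIs) and for Capg in the interaction (-0.11 with the UMI filter, -0.011 without ginkgetin replicate 3, of a range up to 2.97). Of the single-gene values 1511 kept direction and side of the threshold, 50 gained and 235 lost a call and 13 reversed. The cause was not tested. With 4 libraries the replicate block could not be fitted, and the UMI filter, the stricter gates and leaving out a library leave 1 library in an arm, assumed to vary like the others.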
